A study of Homo sapiens with 6 samples.

Results

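The genes described here are 43 human genes of the NRF2 response and of the glutathione and thioredoxin systems, followed in HL-60 cells with less OSGEP. They form a fixed list of names with no threshold on the values, but the names were chosen with earlier results of these data known. All 43 were found among the 58302 gene identifiers of the count tables. HL-60 is a human acute myeloid leukaemia line that grows in suspension, kept here in medium with 20% fetal bovine serum. The 6 RNA-seq libraries comprise 3 of cells carrying an shRNA (short hairpin RNA) that targets OSGEP (genotype given as OSGEP knockdown) and 3 of cells with a control hairpin (given as wild type). OSGEP encodes the catalytic subunit of the KEOPS complex, which places the t6A modification on tRNAs that read codons beginning with A. Nothing in the labels gives the hairpin sequences, the number of hairpins or the time after their delivery, and the origin of the libraries, separate cultures or not, is not labelled either.

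NRF2, encoded by NFE2L2, is a transcription factor that KEAP1 holds at a ubiquitin ligase, so that it is degraded in resting cells. Electrophiles and oxidants modify cysteines of KEAP1, NRF2 then accumulates, and with small MAF proteins it binds antioxidant response elements in front of its targets. These targets make and use glutathione, keep thioredoxin reduced, supply the NADPH on which both systems run, and detoxify quinones and carbonyls. In myeloid cells, hydrogen peroxide also comes from the NADPH oxidase and from mitochondria, and peroxiredoxins, glutathione peroxidases and catalase remove it.

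Each library held between 8326982 and 10157091 counted reads and between 18282 and 19374 genes with a read. Levels are given as CPM, read counts relative to the library's total after TMM normalisation, always in the order of libraries 1, 2 and 3 of a group, and a gene was called when edgeR's quasi-likelihood test gave a Benjamini-Hochberg adjusted p under 0.05 over all 14018 genes tested. OSGEP itself stood at 21.2, 23.1 and 20.9 CPM in OSGEP shRNA libraries, against 49.0, 54.4 and 76.9 CPM in control libraries (log2 fold change -1.47, SE 0.21, adjusted p = 0.000228, edgeR). Of 10 markers of promyelocytic HL-60 cells, all were tested, and 4 (40%) were called lower in OSGEP shRNA cells, against 5.56% of all genes. The 4 were MPO, ELANE, PRTN3 and AZU1. The other 6 were not called by edgeR, and they did not share a direction: LYZ had 217, 233 and 199 CPM in OSGEP shRNA libraries, against 148, 121 and 194 CPM in control libraries, and was called higher by DESeq2 and limma-voom. At an unadjusted p under 0.05 with edgeR, 2 of the 10 were higher (LYZ and CEBPE) and 5 lower, against 22.9% of all genes in either direction. The 10 markers summed to 1395 to 1473 CPM in OSGEP shRNA libraries, against 3053 to 3218 CPM in control libraries, so the line's own markers were abundant in both. In these bulk samples, fewer cells of a type and less RNA per cell cannot be told apart, and the part of this marker shift in the results was not tested. Erythroid markers summed to 0.939 to 7.12 CPM in OSGEP shRNA libraries and 2.95 to 8.28 CPM in control libraries, with HBG1 at 0 in all. Lymphoid markers summed to 4.80 to 9.73 and 3.78 to 6.89 CPM, and epithelial and mesenchymal markers to 26.3 to 47.2 and 22.9 to 28.9 CPM, in OSGEP shRNA and control libraries in that order, with 0 markers of these 3 lists called by edgeR. Only 1 erythroid, 1 lymphoid and 5 epithelial and mesenchymal markers were tested. That is too few to set apart from the 10.8% of all genes called. Of the tested markers of these lists, KRT8 passed an unadjusted p under 0.05 with edgeR and was called by DESeq2 and not by limma-voom.

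NRF2 binds the antioxidant response element, whose core can be written TGACNNNGC. The RefSeq promoter windows (GRCh38.p14) run from 250 bases before to 50 bases after an annotated start, and 36 of the 43 genes have at least 1 such window. The upstream 250 bases of 5 genes that were called higher are shown 5′ to 3′ along the gene, because they differ in whether and where they hold the core. Capitals mark a match on either strand.
GCLM (chr1:93909431-93909680, minus strand): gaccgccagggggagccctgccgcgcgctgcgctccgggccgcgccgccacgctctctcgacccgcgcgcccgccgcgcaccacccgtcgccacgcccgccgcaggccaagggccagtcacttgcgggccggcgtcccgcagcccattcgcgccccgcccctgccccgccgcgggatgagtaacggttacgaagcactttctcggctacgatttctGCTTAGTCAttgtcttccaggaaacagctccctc
ME1 (chr6:83431052-83431301, minus strand): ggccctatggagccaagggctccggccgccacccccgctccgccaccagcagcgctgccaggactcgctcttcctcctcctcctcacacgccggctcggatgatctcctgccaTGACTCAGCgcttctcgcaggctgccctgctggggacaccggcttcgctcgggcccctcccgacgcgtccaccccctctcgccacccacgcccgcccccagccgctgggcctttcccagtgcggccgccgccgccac
TXNRD1 (chr12:104286782-104287031, plus strand): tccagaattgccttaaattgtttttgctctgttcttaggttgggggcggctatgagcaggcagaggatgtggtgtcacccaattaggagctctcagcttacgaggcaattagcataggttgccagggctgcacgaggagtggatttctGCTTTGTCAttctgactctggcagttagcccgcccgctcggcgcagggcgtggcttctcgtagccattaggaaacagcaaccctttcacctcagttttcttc
PGD (chr1:10398814-10399063, plus strand): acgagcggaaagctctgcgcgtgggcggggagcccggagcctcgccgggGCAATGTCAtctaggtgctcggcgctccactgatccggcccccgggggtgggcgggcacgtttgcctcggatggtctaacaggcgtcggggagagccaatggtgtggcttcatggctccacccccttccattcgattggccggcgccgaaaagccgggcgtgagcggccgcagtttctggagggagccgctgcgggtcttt
NQO1 (chr16:69726561-69726810, minus strand): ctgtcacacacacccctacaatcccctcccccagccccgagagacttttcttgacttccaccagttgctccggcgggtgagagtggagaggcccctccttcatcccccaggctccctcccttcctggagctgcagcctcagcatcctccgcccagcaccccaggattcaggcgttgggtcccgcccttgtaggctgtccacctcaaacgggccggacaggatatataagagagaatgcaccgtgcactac
GCLM holds TGACTAAGC on the opposite strand, with its leftmost base in gene direction 34 bases before the start. ME1 holds TGACTCAGC on its own strand 137 bases before the start. The TXNRD1 window shown holds TGACAAAGC on the opposite strand at 102 bases, and another TXNRD1 window holds TGACTTCGC on the gene's strand at 99 bases and TGACGGAGC on the opposite strand at 8 bases. PGD holds TGACATTGC on the opposite strand at 201 bases. ME1 has a further match after its start, outside the stretch shown. The upstream stretch of NQO1 holds no match, and its known element lies farther upstream than these windows reach. A match is a run of letters and not a shown binding site.

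Among all 35116 windows, 4687 (13.3%) hold TGACNNNGC on either strand, against 11 of 53 windows (20.8%) of the 43 genes. Several windows can belong to 1 gene and overlap. Of 14 genes called higher that have a window, 6 hold a match (GCLM, ME1, TXNRD1, PGD, MGST1 and EPHX1), in 7 of their 22 windows (31.8%). Of 18 genes tested but not called, 4 hold a match (KEAP1, GSTP1, GSTO1 and CBR1), in 4 of 26 windows (15.4%). The AP-1 element TGANTCA, which overlaps the core in ME1 and GSTP1, occurs in 3 of the genes' 53 windows (5.66%) and in 7.71% of all windows. These shares are descriptions over few windows and were not tested.

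Of the 43 genes, 39 had enough reads to be tested, and 15 of them were higher and 1 was lower in OSGEP shRNA cells. The largest differences were those of NQO1 and OSGIN1, followed by ME1, GCLM, MGST1 and EPHX1, the 6 genes that were called and at least 2-fold apart. The 1 gene that fell was GSR, glutathione reductase. By role, 3 of 4 genes of NADPH supply and the pentose phosphate pathway were called higher. So were 3 of 4 genes of glutathione synthesis and recycling and 4 of 8 tested quinone and carbonyl enzymes. The shares over all genes tested were 5.19% higher and 10.8% in either direction. Of 6 peroxiredoxins 0 were called, too few genes to set apart from that share. PRDX1 was called higher once the reads of its pseudogene were added.

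Over all genes tested, 10.8% were called, 5.19% higher and 5.56% lower, whereas 41% of the 39 antioxidant genes were called, 38.5% higher and 2.56% lower. The list was chosen with earlier results of these data known, so its distance from all genes is a description and not a test. At an unadjusted p under 0.05, 24 of the 39 passed (23 higher and 1 lower), against 22.9% of all genes. The 3 OSGEP shRNA libraries lay above the 3 control libraries for 21 genes (13.3% of all genes did so) and below them for 3 genes (15.6% of all genes), and the groups overlapped for 15. Groups that do not overlap in either direction made up 28.9% of all genes. The median log2 fold change was 0.41 over the 39 genes and 0.005 over all genes, and 31 of the 39 were positive. Summed over the 43 genes, the level was 6571, 5860 and 6258 CPM in OSGEP shRNA libraries, against 4712, 4909 and 4914 CPM in control libraries. Scaling by library size alone moved the split of calls over all genes to 859 higher and 612 lower, against 727 and 780 with TMM, and that of the antioxidant genes to 18 higher and 1 lower.

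Calls were more frequent among abundant genes, so the count was also read by level. Among the 20 antioxidant genes with a mean of at least 100 CPM, 8 (40%) were called, all higher. Of all 1757 genes at that level, 28.0% were called and 10.6% were called higher. The median log2 fold change there was 0.35 for the 20 genes, against -0.07 for the 1757. Of the 19 tested genes under 100 CPM, 7 (36.8%) were called higher and 1 lower. Of all 12261 genes under 100 CPM, 8.28% were called and 4.41% were called higher. That group reaches down to the read filter and was not matched in level to the 19 genes. With a filter at a mean of 5 CPM, 757 of all 10475 genes tested and 14 of 38 antioxidant genes were called higher.

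**Figure D1:**
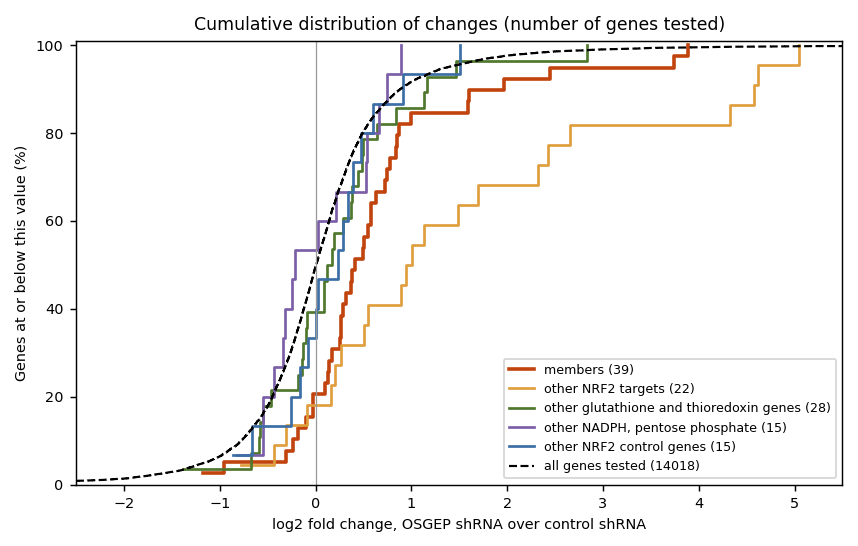
Cumulative distribution of log2 fold changes, OSGEP shRNA over control shRNA (x axis), as the percentage of genes at or below each value (y axis), for the antioxidant genes, the other pathway lists and all genes tested. The line of the 39 antioxidant genes lies to the right of that of all 14018 genes over most of its course, with medians of 0.41 and 0.005.

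**Figure D2:**
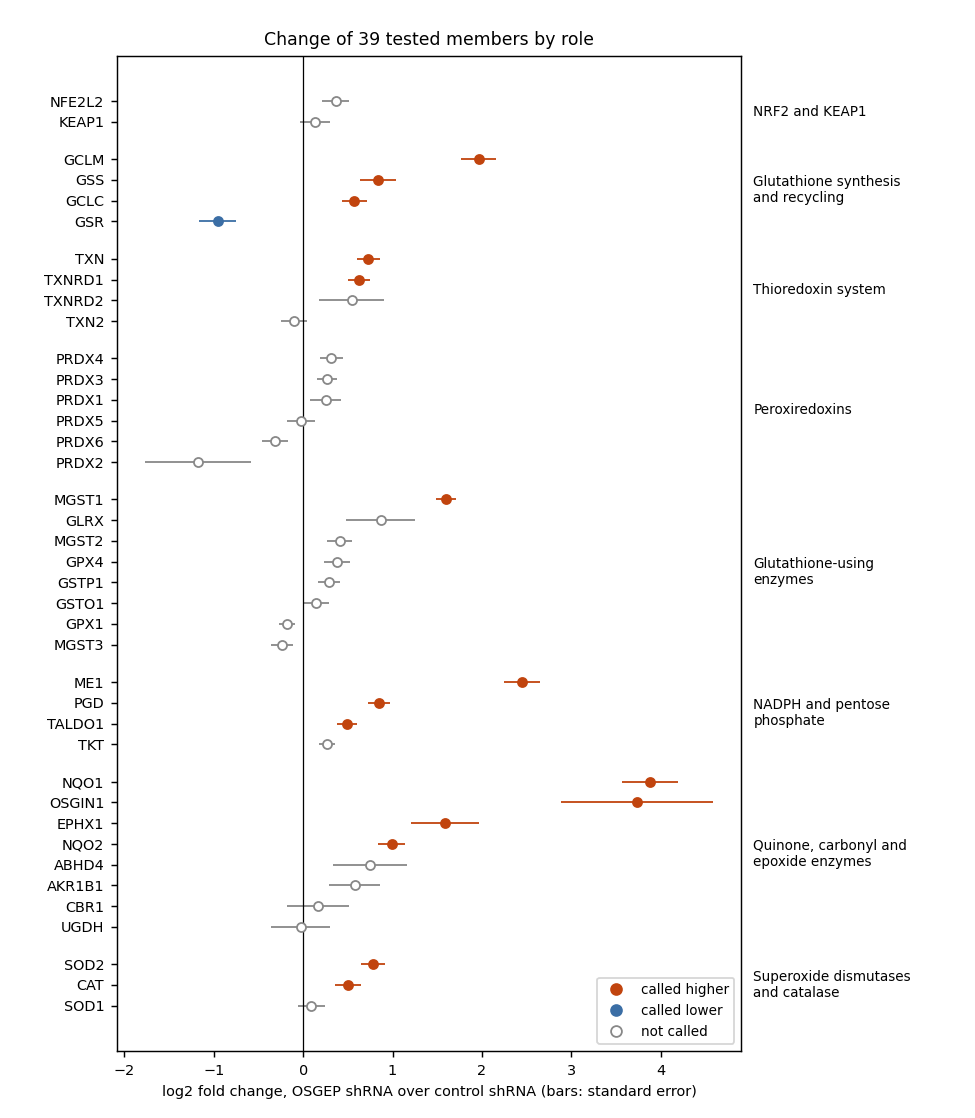
Log2 fold change of each of the 39 tested genes, OSGEP shRNA over control shRNA, grouped by role, with bars of 1 standard error. The values run from -1.17 for PRDX2, which was not called, to 3.88 for NQO1, and GSR is the 1 gene called lower.

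Neither of the 2 regulators was called with edgeR, DESeq2 or limma-voom, and 1, NFE2L2, passed an unadjusted p under 0.05 with edgeR. Over all genes tested, edgeR called 10.8%, and 22.9% passed the unadjusted threshold, so counts over 2 genes cannot be set apart from these shares. NFE2L2 itself, the gene of NRF2, stood at 93.5, 81.5 and 106 CPM in OSGEP shRNA libraries, against 74.4, 68.3 and 75.8 CPM in control libraries (log2 fold change 0.36, SE 0.15, adjusted p = 0.152, edgeR). Its groups did not overlap, but the difference missed the threshold. In the annotation, 17.6% of NFE2L2's exon bases also belong to a second gene on the same strand. That gene had 0, 1 and 4 reads in OSGEP shRNA libraries, against 12, 3 and 11 in control libraries. Reads of such shared bases may have been left unassigned. KEAP1, the adaptor that delivers NRF2 for degradation, had 50.5, 60.6 and 57.5 CPM in OSGEP shRNA libraries, against 56.9, 50.3 and 46.9 CPM in control libraries, and the groups overlapped (log2 fold change 0.13, SE 0.17, adjusted p = 0.738, edgeR). Since NRF2 is regulated mainly as a protein, these mRNA levels do not measure its activity.

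Of 8 tested genes of quinone and carbonyl detoxification, 4 rose, NQO1 the most among the 39. NQO1 (ENSG00000181019, chr16:69706996-69726951, minus strand, GRCh38) reduces quinones to hydroquinones and so spares the cell redox cycling. It reached 219, 142 and 185 CPM in OSGEP shRNA libraries, against 5.15, 17.0 and 14.9 CPM in control libraries. Every OSGEP shRNA library was far above every control library, and the means were 182 ± 38.8 and 12.3 ± 6.31 CPM (SD, n = 3 each, OSGEP shRNA and then control), a fitted 14.8-fold difference (log2 fold change 3.88, SE 0.31, adjusted p = 4.4e-07, edgeR). NQO2, a related quinone reductase that uses dihydronicotinamide riboside in place of NADPH, had 112, 115 and 96.8 CPM in OSGEP shRNA libraries, against 54.2, 50.01 and 58.7 CPM in control libraries (log2 fold change 0.99, SE 0.15, adjusted p = 0.000314, edgeR). The groups of NQO2 were also well apart, with little spread within either.

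EPHX1, the microsomal epoxide hydrolase, had 28.8, 15.5 and 14.2 CPM in OSGEP shRNA libraries, against 4.95, 8.49 and 6.03 CPM in control libraries (log2 fold change 1.59, SE 0.38, adjusted p = 0.0115, edgeR). OSGEP shRNA library 1 was the highest of the 6. Without that library, without control library 1 or without control library 3, the log2 fold change was 1.19, 1.42 or 1.53 and the call was lost. The neighbour TMEM63A on the opposite strand overlaps 1.12% of EPHX1's exon bases and was called higher too (28.3, 24.7 and 35.1 CPM in OSGEP shRNA libraries, against 16.6, 16.1 and 17.5 CPM in control libraries), and without a stated strand setting reads in the overlap cannot be told apart. OSGIN1, an oxidative stress-induced growth inhibitor, was low, at 4.80, 9.43 and 10.2 CPM in OSGEP shRNA libraries, against 0.206, 1.43 and 0.123 CPM in control libraries (log2 fold change 3.74, SE 0.85, adjusted p = 0.00837, edgeR). In reads these control values are 2, 14 and 1. The groups of OSGIN1 did not overlap, but its call was lost with limma-voom (log2 fold change 4.17) and without OSGEP shRNA library 3 (3.56).

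The other carbonyl enzymes did not pass. The log2 fold changes were 0.75 for ABHD4, a lipase of N-acyl phospholipids, 0.58 for aldose reductase AKR1B1, 0.17 for carbonyl reductase CBR1 and -0.03 for UGDH, which makes UDP-glucuronate. The groups of all 4 overlapped. ABHD4 had 0.39 without OSGEP shRNA library 2, and AKR1B1 had 0.31 without OSGEP shRNA library 1. The aldo-keto reductases of the AKR1C family, which reduce steroids and lipid aldehydes and are strong NRF2 targets in epithelial cells, were nearly silent here. AKR1C3 had 33 reads over the OSGEP shRNA libraries and 3 over the control libraries, a depth-adjusted ratio of 10.5 with an exact 95% interval of 3.3 to 53.6. That interval covers counting error only, and AKR1C3 did not pass the default filter for the test. AKR1C1 and AKR1C2 had 1 read each over the OSGEP shRNA libraries and 0 over the control libraries, where 3 reads would amount to 0.108 CPM. The AKR1C genes are similar in sequence, so reads that align to several of them may not have been counted.

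All 4 genes of glutathione synthesis and recycling were called, and they did not all move in 1 direction. Glutamate-cysteine ligase, the rate-limiting enzyme of glutathione synthesis, consists of a catalytic subunit, GCLC, and a modifier subunit, GCLM, which makes it work better at the concentrations found in cells. GCLM (ENSG00000023909, chr1:93885205-93909456, minus strand, GRCh38) had 108, 81.7 and 104 CPM in OSGEP shRNA libraries, against 20.4, 24.6 and 30.5 CPM in control libraries (log2 fold change 1.96, SE 0.19, adjusted p = 4.42e-06, edgeR). GCLC had 166, 149.6 and 159 CPM in OSGEP shRNA libraries, against 91.9, 100 and 127 CPM in control libraries (log2 fold change 0.57, SE 0.14, adjusted p = 0.0152, edgeR). Both subunits rose with no overlap of groups, and the difference between their rises was not tested. As a description, the ratio of GCLM to GCLC in CPM was 0.654, 0.546 and 0.657 in OSGEP shRNA libraries, against 0.222, 0.247 and 0.241 in control libraries (means 0.619 ± 0.063 and 0.236 ± 0.0129, SD, n = 3 each). CPM is not per length, so the ratio of levels does not give the ratio of molecules, but it can be set side by side between libraries.

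GSS, glutathione synthetase, which adds the glycine, had 57.1, 41.8 and 52.2 CPM in OSGEP shRNA libraries, against 24.8, 30.4 and 29.2 CPM in control libraries (log2 fold change 0.84, SE 0.20, adjusted p = 0.0125, edgeR). GSR, which reduces glutathione disulfide with NADPH, had 34.0, 29.4 and 22.9 CPM in OSGEP shRNA libraries, against 55.3, 64.1 and 48.2 CPM in control libraries (log2 fold change -0.96, SE 0.21, adjusted p = 0.00597, edgeR). GSR thus fell while the synthesis genes rose, with every OSGEP shRNA library below every control library. The calls of 3 genes of this role depended on single libraries. That of GCLC was lost without OSGEP shRNA library 3, control library 1 or control library 2 (log2 fold change 0.58, 0.47 and 0.53). That of GSS was lost without OSGEP shRNA library 3, control library 1 or control library 3 (0.83, 0.75 and 0.86), and that of GSR without control library 2 (-0.85).

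**Figure D3:**
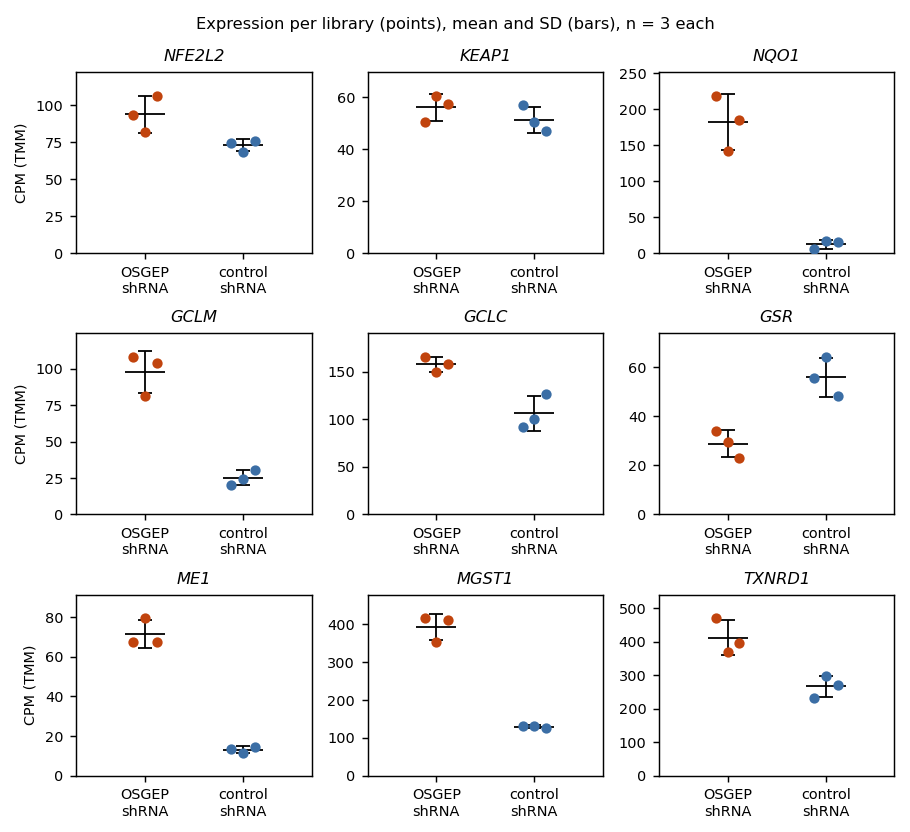
CPM of selected genes in each library (points), with mean and SD (bars, n = 3 each), OSGEP shRNA on the left and control shRNA on the right of each panel, y axes from 0. For NQO1 the OSGEP shRNA libraries lie between 142 and 219 CPM, above all control libraries, while for GSR they lie between 22.9 and 34.0 CPM, below all control libraries.

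Of the 8 enzymes that spend glutathione, 1 was called (12.5%), close to the 10.8% of all genes tested. At an unadjusted p under 0.05 with edgeR, 5 passed, all higher, against 22.9% of all genes in either direction. MGST1 (ENSG00000008394, chr12:16347142-16609259, plus strand, GRCh38), a membrane-bound glutathione transferase that also reduces lipid hydroperoxides, had 416, 353 and 410.5 CPM in OSGEP shRNA libraries, against 132, 132 and 125 CPM in control libraries (log2 fold change 1.6, SE 0.11, adjusted p = 1.24e-07, edgeR). Its means were 393 ± 35.2 and 129.7 ± 3.85 CPM (SD, n = 3 each, OSGEP shRNA and then control), with almost no spread in the control libraries. MGST2, which can conjugate glutathione to leukotriene A4, had 131, 102 and 118 CPM in OSGEP shRNA libraries, against 92.3, 89.7 and 81.6 CPM in control libraries (log2 fold change 0.41, SE 0.14, adjusted p = 0.0859, edgeR), and the third family member, MGST3, had a log2 fold change of -0.23. MGST2 passed without OSGEP shRNA library 2 (0.51) and with DESeq2 (0.43).

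The glutathione peroxidases did not pass. GPX1, a selenoprotein that reduces hydrogen peroxide, had 715, 688 and 774 CPM in OSGEP shRNA libraries, against 775, 852 and 844 CPM in control libraries (log2 fold change -0.18, SE 0.09, adjusted p = 0.255, edgeR). In reads assigned to GPX1 alone, without its pseudogenes, the OSGEP shRNA libraries were all below the control libraries by a small margin. GPX4, which reduces lipid hydroperoxides in membranes, had 139, 183 and 181 CPM in OSGEP shRNA libraries, against 146, 109.5 and 131 CPM in control libraries (log2 fold change 0.38, SE 0.15, adjusted p = 0.122, edgeR), and it passed without OSGEP shRNA library 1 (0.50). The cytosolic transferases GSTP1 and GSTO1 had log2 fold changes of 0.29 and 0.14. GLRX, glutaredoxin, which removes glutathione from protein cysteines, varied among control libraries, with 21.7, 28.5 and 18.5 CPM in OSGEP shRNA libraries, against 21.2, 10.3 and 5.91 CPM in control libraries. Control library 1 stood well above the other control libraries, and without it the log2 fold change was 1.49 and passed, in place of 0.87.

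In the thioredoxin system, the cytosolic pair rose and the mitochondrial pair did not pass. TXN, thioredoxin itself, which reduces protein disulfides, had 212, 176 and 212 CPM in OSGEP shRNA libraries, against 120.0, 112 and 131 CPM in control libraries (log2 fold change 0.73, SE 0.13, adjusted p = 0.00129, edgeR). TXNRD1 (ENSG00000198431, chr12:104215779-104350305, plus strand, GRCh38), the selenoprotein that reduces it with NADPH, had 469.9, 369.8 and 395 CPM in OSGEP shRNA libraries, against 232, 296 and 271 CPM in control libraries (log2 fold change 0.63, SE 0.12, adjusted p = 0.00291, edgeR). The groups of both genes were apart, and both calls held under every alternative. Their mitochondrial counterparts, TXN2 and TXNRD2, had log2 fold changes of -0.10 (SE 0.14) and 0.54 (SE 0.37) with overlapping groups, and the difference between the cytosolic and mitochondrial pairs was not tested. SRXN1, sulfiredoxin, which repairs overoxidised peroxiredoxins and is a known NRF2 target, had 11 reads in OSGEP shRNA library 2 and 0 in every other library. In the annotation, 85% of its exon bases also belong to a second gene on the same strand, which had 0 reads. Reads of such shared bases may have been left unassigned, so the level of SRXN1 could not be measured.

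The peroxiredoxins reduce peroxides with electrons from thioredoxin, apart from PRDX6, which uses glutathione. None of the 6 was called with edgeR, DESeq2 or limma-voom, and 2 passed an unadjusted p under 0.05 with edgeR, PRDX3 and PRDX4. Over all genes tested, edgeR called 10.8%, and 22.9% passed the unadjusted threshold. With 6 genes, the counts cannot be set apart from these shares. Scaled by library size alone, edgeR called PRDX3 higher (0.33). Log2 fold changes were 0.27 for the mitochondrial PRDX3, 0.31 for PRDX4 of the endoplasmic reticulum, -0.03 for PRDX5 and -0.31 for PRDX6. PRDX6 was called lower without OSGEP shRNA library 1 (-0.50). PRDX2, which is abundant in red cells, was low, at 3.23, 6.47 and 1.19 CPM in OSGEP shRNA libraries, against 9.38, 9.72 and 5.66 CPM in control libraries (log2 fold change -1.17, SE 0.59, adjusted p = 0.259, edgeR). Its groups nearly separated, with OSGEP shRNA library 2 above control library 3. The log2 fold change was -1.87 without OSGEP shRNA library 2 and -0.75 without OSGEP shRNA library 3, and it was not called either way.

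For PRDX1, the main cytosolic peroxiredoxin and a known NRF2 target, most reads were assigned to a pseudogene. PRDX1 had 62.9, 84.2 and 66.5 CPM in OSGEP shRNA libraries, against 69.2, 55.4 and 54.5 CPM in control libraries, and was not called (log2 fold change 0.25, SE 0.17, adjusted p = 0.434, edgeR). Its processed pseudogene PRDX1P1 had 354, 291 and 314 CPM in OSGEP shRNA libraries, against 219, 207 and 209 CPM in control libraries, and was called higher (log2 fold change 0.60, SE 0.11, adjusted p = 0.00213, edgeR). Over the 6 libraries, 15036 reads went to pseudogenes of PRDX1 and 3732 to PRDX1, a pseudogene share of 80.1% that ranged from 75.9% to 84.9%. With these reads added to the gene, PRDX1 had a log2 fold change of 0.53 (SE 0.10) and was called higher. Whether the reads came from PRDX1 or from the pseudogene was not tested, since the treatment of reads with several alignments is not given in the sources used here, and the value of PRDX1 alone is uncertain for that reason. MMACHC on the opposite strand also covers 24.9% of PRDX1's exon bases.

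The same count was made for all 43 genes, for pseudogenes named by the gene's symbol followed by P and digits. By that rule 14 genes have annotated pseudogenes, 38 in all, 24 with at least 1 read. Pseudogenes under other names were not counted. TXN's pseudogenes took 21.8% of the sum, and TXNP6 was called higher like its parent (log2 fold change 0.76, SE 0.21). Adding them left TXN called (log2 fold change 0.74). For PGD the share was 10.2% and the call also held (0.80). For GPX1, at a share of 6.28%, the log2 fold change was -0.14 with the pseudogenes added, with no call. That share ran from 2.35% to 12.5% in OSGEP shRNA libraries and from 4.11% to 5.7% in control libraries. For PRDX2 the share was 29.4% over all libraries but ran from 32.6% to 80.8% in OSGEP shRNA libraries and from 8% to 20.2% in control libraries. With pseudogenes added, its log2 fold change was -0.49, also with no call.

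**Figure D4:**
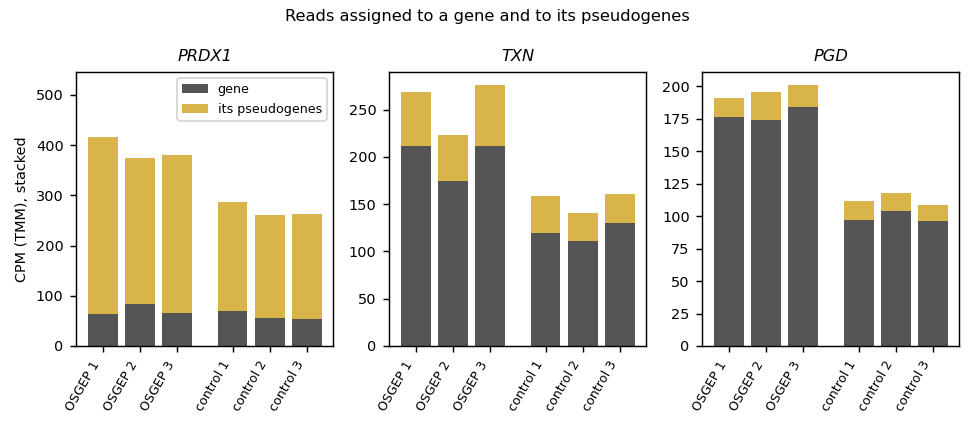
CPM assigned to a gene (grey) and to its annotated pseudogenes (yellow), stacked, for PRDX1, TXN and PGD. The left 3 bars are OSGEP shRNA libraries and the right 3 bars control libraries. PRDX2, with a pseudogene share of 29.4%, is not shown. For PRDX1 the pseudogene part is 75.9% to 84.9% of each bar, and the stacked total is higher in all 3 OSGEP shRNA libraries.

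Of 4 genes of NADPH supply and the pentose phosphate pathway, 3 rose, and of these ME1 and PGD encode enzymes that make NADPH. ME1, cytosolic malic enzyme, which makes NADPH while turning malate into pyruvate, had 67.3, 79.4 and 67.4 CPM in OSGEP shRNA libraries, against 13.5, 11.2 and 14.5 CPM in control libraries (log2 fold change 2.45, SE 0.20, adjusted p = 6.48e-07, edgeR). PGD, the second dehydrogenase of the pentose phosphate pathway, had 177, 175 and 185 CPM in OSGEP shRNA libraries, against 97.2, 104 and 96.2 CPM in control libraries (log2 fold change 0.85, SE 0.12, adjusted p = 0.000213, edgeR). The replicates of both genes lay close together and the groups far apart. TALDO1, transaldolase of the non-oxidative branch, which makes no NADPH itself, had 245, 269.8 and 256 CPM in OSGEP shRNA libraries, against 188, 190.3 and 168 CPM in control libraries (log2 fold change 0.49, SE 0.11, adjusted p = 0.00885, edgeR), a call that was lost without control library 3 (0.44). TKT, transketolase of the same branch, had 826, 756 and 737 CPM in OSGEP shRNA libraries, against 620.2, 649 and 658 CPM in control libraries and missed the threshold (log2 fold change 0.27, SE 0.09, adjusted p = 0.0769, edgeR). Its groups did not overlap, and DESeq2 (0.28) and limma-voom (0.27) called it higher.

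Superoxide dismutases turn superoxide into hydrogen peroxide, and catalase breaks that down in peroxisomes. SOD2, the mitochondrial manganese enzyme, had 131, 156 and 135 CPM in OSGEP shRNA libraries, against 82.8, 82.0 and 80.6 CPM in control libraries (log2 fold change 0.78, SE 0.13, adjusted p = 0.000988, edgeR). The control libraries of SOD2 were nearly equal, and the call held under every alternative. SOD1, the cytosolic copper-zinc enzyme, had 107, 96.5 and 85.2 CPM in OSGEP shRNA libraries, against 100.2, 82.5 and 87.6 CPM in control libraries, with overlapping groups (log2 fold change 0.09, SE 0.15, adjusted p = 0.791, edgeR). CAT, catalase, had 207, 148 and 170.1 CPM in OSGEP shRNA libraries, against 114, 128 and 129.5 CPM in control libraries (log2 fold change 0.50, SE 0.14, adjusted p = 0.0311, edgeR). The call of CAT was lost on leaving out any library but OSGEP shRNA library 2, with log2 fold changes of 0.36 and 0.54 without OSGEP shRNA libraries 1 and 3 and 0.44, 0.52 and 0.53 without control libraries 1, 2 and 3.

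**Figure D5:**
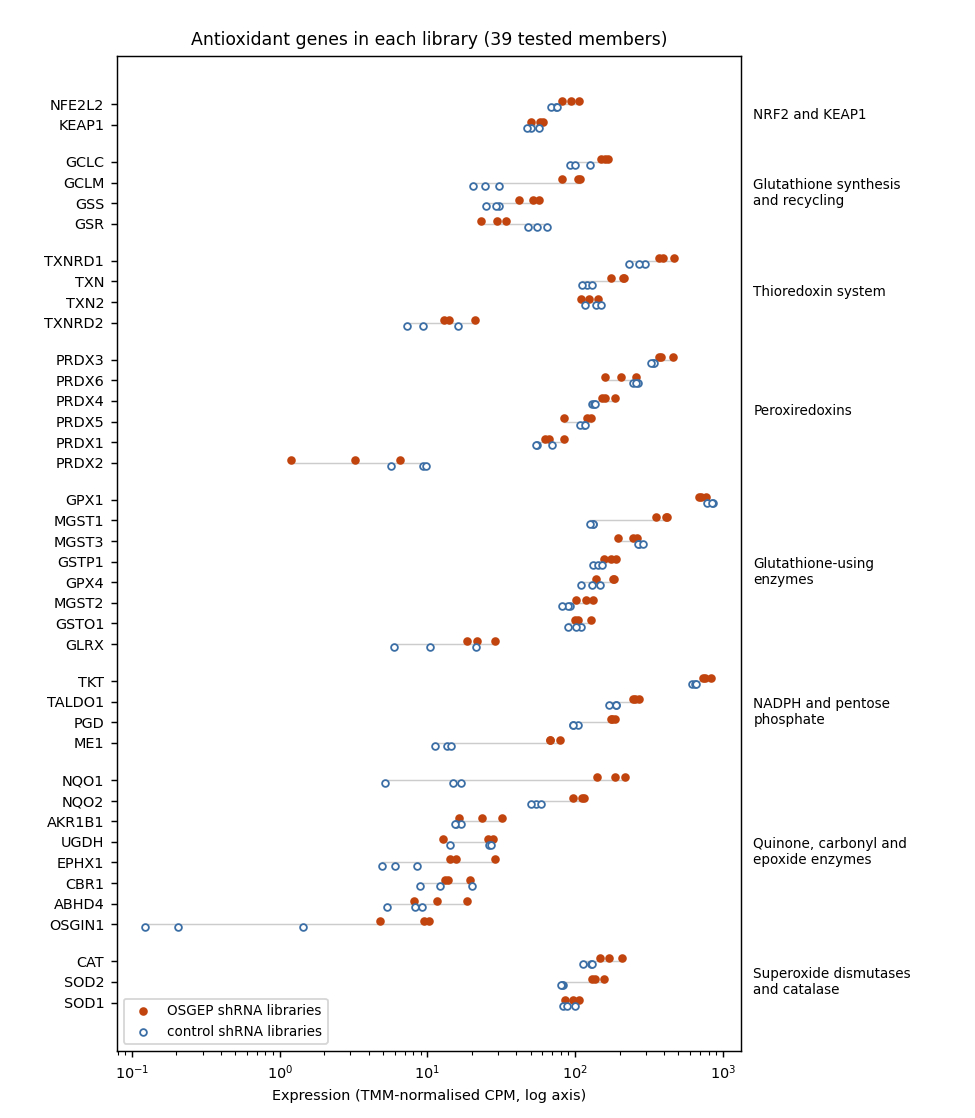
CPM (log axis) of the 39 tested genes in each of the 3 OSGEP shRNA libraries (filled points, upper row of each gene) and 3 control libraries (open points, lower row). All 3 filled points lie to the right of the open ones for 21 genes and to the left for 3.

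Levels can be compared between genes only per length. In CPM per kilobase of annotated exon, GPX1 was the highest of the 43 genes, at 508 in OSGEP shRNA cells and 576 in control cells (means of 3 libraries). PRDX5 had 124 and 127, PRDX6 87.4 and 108, and TXN 175 and 106 CPM per kilobase, in OSGEP shRNA cells and then in control cells. NQO1 reached 55.9 in OSGEP shRNA cells and 3.79 in control cells, and GCLM 18.1 and 4.65. PRDX1 was ranked by the reads assigned to the gene alone. The exon length counts all annotated exons, so genes with long rare isoforms come out too low.

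Other genes of the same pathways, from lists that like the 43 genes were drawn up with earlier results of these data known, were counted alongside. Of 33 further NRF2 targets, 22 were tested, 11 were higher (50%) and 1 was lower (4.55%), with a median log2 fold change of 0.97. Over all genes tested, 5.19% were higher and 5.56% lower. HMOX1, which breaks down heme, had 35.5, 31.6 and 34.0 CPM in OSGEP shRNA libraries, against 0.515, 0.409 and 3.32 CPM in control libraries (log2 fold change 4.62, SE 0.54, adjusted p = 2.77e-05, edgeR). SLC7A11, which brings in cystine for glutathione synthesis, had 91.5, 78.8 and 82.1 CPM in OSGEP shRNA libraries, against 3.81, 4.19 and 4.55 CPM in control libraries (log2 fold change 4.33, SE 0.21, adjusted p = 1.85e-09, edgeR). Both genes were low in every control library and far higher in every OSGEP shRNA library. ALDH1A1, a retinal dehydrogenase, had 49.8, 31.3 and 35.6 CPM in OSGEP shRNA libraries, against 0.618, 0.205 and 2.83 CPM in control libraries (log2 fold change 5.05, SE 0.55, adjusted p = 1.3e-05, edgeR). Log2 fold changes of the others named were 2.66 for the carboxylesterase CES1, 2.32 for pirin (PIR), 1.49 and 1.13 for the ferritin chains FTH1 and FTL, and 1.00 for the heme transporter SLC48A1. Ferritin genes have many processed pseudogenes, so their values are uncertain. TXNIP, which binds and inhibits thioredoxin, was the 1 gene lower (log2 fold change -0.78, SE 0.13, adjusted p = 0.00104, edgeR).

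Of 16 genes that control NRF2 or share its partners, 15 were tested and 0 were called with edgeR, against 10.8% of all genes. At an unadjusted p under 0.05, 5 passed (3 higher and 2 lower), against 22.9% of all genes. With 15 genes, these counts cannot be set apart from those shares. DESeq2 called 1 higher and limma-voom 0. Of 34 further glutathione and thioredoxin genes, 28 were tested, 4 were higher (14.3%) and 1 was lower (3.57%), with a median log2 fold change of 0.14. They were CHAC1, which degrades glutathione (2.83), the methionine sulfoxide reductase MSRB1 (0.84), the dipeptidase CNDP2 (0.48) and the thioredoxin-like TXNL1 (0.38), and, lower, the glyoxalase GLO1 (-0.55). CHAC1 is also a known target of the integrated stress response. Of 16 further genes of NADPH supply and the pentose phosphate pathway, 15 were tested and 2 moved each way (13.3% each), with a median of -0.21. Isocitrate dehydrogenase IDH1 was higher (0.53), while the mitochondrial transhydrogenase NNT (-0.82) and the ribose-5-phosphate isomerase RPIA (-0.55) were lower. The calls of TXNL1, CNDP2, IDH1 and RPIA were each lost on leaving out single libraries, among them control library 2 for all 4, with log2 fold changes of 0.41, 0.49, 0.52 and -0.47 without it. RPIA was also not called with RLE size factors (-0.53) or library size alone (-0.48). Of the 79 tested genes of these lists, counted once each, 16 were higher (20.3%) and 4 lower (5.06%).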

How the data were processed

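RNA-seq was measured in 6 libraries of HL-60 cells, 3 with a hairpin against OSGEP and 3 with a control hairpin, grouped by their titles. Per the labels' protocols, total RNA went into a stranded mRNA kit and 150 bp paired-end reads. The authors deposited unnormalised counts of reads for each Ensembl gene, in a table per library. Per the submitters' processing notes, HISAT2 2.1.0 and featureCounts 1.6.3 were used with GRCh38 and GRCm38 listed. How multi-mapping reads were counted, with which strand setting and annotation, is not given in the sources used here. The proteome was not analysed here.

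Symbols, types and positions came from GENCODE release 29 (GRCh38), which holds 58039 of the 58302 identifiers, and a list of current symbols, which holds 57532. Of the listed symbols, 1 was not matched (GSTT1). Counts were tested with edgeR 4.0.16 in R 4.3.3 (glmQLFit and glmQLFTest, two-sided), TMM scaling, a single group term and the filterByExpr defaults (at least 10 reads in enough libraries, 15 in total), retaining 14018 genes and dropped 44284. Genes were called at a Benjamini-Hochberg adjusted p under 0.05 over all genes tested. The standard error is the absolute log2 fold change divided by the square root of F. Total counts lay between 8326982 and 10157091, and the common biological coefficient of variation was 35.2%. In pairs of libraries of 1 group, chi-square per degree of freedom lay between 10.53 and 25.56, so none was treated as a repeat of another. As no label gives separate cultures, p-values reflect only library-to-library spread, which may be technical.

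The 43 genes and the other lists were chosen with earlier results of these data known. Named are OSGEP, all 43 genes, the called genes of each other list (where more than 8, those 8 largest in absolute log2 fold change among genes averaging 5 CPM or more), and the overlapping genes and pseudogenes that bear on a member. TXNIP was named after its value was seen. A few genes of the other lists and markers are counted but not reported by name here. Promoter windows came from RefSeq (GRCh38.p14). Intervals of read counts are exact and cover counting error only.

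Alternatives were DESeq2 1.42.0, limma-voom (limma 3.58.1), RLE size factors, scaling by library size alone, testing all genes with 1 read, a filter at 5 CPM on average, the replicate number as a block, leaving out each library, and adding pseudogene counts to their gene. The steps were tested on simulated counts of genes of all levels. Of genes given a 1.5-fold, 2-fold or 4-fold change, 3.1%, 38.8% and 67.2% were recovered. Of 74 calls, 5 were of unchanged genes. A gene that was not called can therefore still differ.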

Additional observations from a re-analysis of the deposited data

How the results depend on the processing

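Of 16 called antioxidant genes, 9 were called under every alternative that was run (GCLM, ME1, MGST1, NQO1, NQO2, PGD, SOD2, TXN and TXNRD1). The count of genes called higher among the 43 was 11 to 16 on leaving out 1 library, 18 with library size alone, 17 with DESeq2 and 14 with a mean CPM of at least 5. The count called lower was 0 to 2 on leaving out 1 library: it was 0 without control library 2 and 2 without OSGEP shRNA library 1, where PRDX6 joined GSR. Over all genes, leaving out 1 library gave 445 to 726 genes higher and 423 to 898 lower, with fewer libraries to estimate the spread; the counts were 483 and 458 without OSGEP shRNA library 3, 467 and 423 without control library 2, and 445 and 425 without control library 3. Library size alone moved the median log2 fold change of all genes to 0.076, and DESeq2 gave 954 genes higher and 920 lower. Small uncalled differences changed sign: PRDX5 was 0.051 with library size alone and -0.14 to 0.14 on leaving out 1 library, UGDH was 0.029 and -0.28 to 0.26, and CBR1 was -0.067 to 0.54 on leaving out 1 library. The cause was not tested.

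Libraries of the 2 groups share replicate numbers, but same-numbered libraries did not deviate together (correlations of -0.116, -0.062 and -0.037), so the numbers were not taken as pairs. With the replicate number as a block, 519 genes were higher and 553 lower over all genes, 14 and 1 among the antioxidant genes, and 13 and 3 among the other pathway genes. CAT, TXNL1, CNDP2 and RPIA were not called with the block.

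AKR1C1, AKR1C2, AKR1C3 and SRXN1 had too few reads to pass the default filter. With no filter beyond 1 read all 43 genes were tested, and the counts stayed at 15 higher and 1 lower.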
